A study of Mus musculus with 30 samples.

Results

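Interferon-stimulated genes are the genes that a cell switches on when it senses interferon, and 48 of them, listed by symbol, were followed across an RNA-seq series on the NuRD complex. All 48 symbols were found, each once, among the 25400 genes of the count table, and all 48 passed the filter on low counts that left 16582 genes for testing. The series measured poly(A) RNA of neuronal progenitor cells (NPCs), taken on day 8 after mouse embryonic stem cells (ESCs) were set to differentiate, in 24 libraries with 3 per line. There were 8 lines, namely wild type (WT), *Mbd3* KO, and *Mbd3* KO carrying a construct for MBD3a, MBD3ΔMBD (MBD3a without its methyl-CpG-binding domain), MBD2a, MBD2aΔGR (which lacks the glycine-arginine stretch of MBD2a), MBD2aR181C (MBD2a with a point mutation in that domain) or MBD2t (the truncated MBD2 isoform). Each construct sat at the same recombination site under the CAG promoter, so the 6 construct lines carried the *Mbd3* deletion as well, and the promoter is a strong one (the levels reached are given below). Each library came from a separately derived clone, except that the 3 MBD2t libraries are repeats of 1 clone. The labels name the point mutant R181C, the deposited columns R64C and the text of the study R191C, and these libraries were matched as the only point mutant of MBD2a.

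Values are CPM, read counts scaled to a common library total after TMM normalization, and the 24 libraries held between 27993858 and 49392806 counted reads. At these depths 3 reads correspond to 0.0607 to 0.115 CPM, a floor that covers counting error only. Calls come from the quasi-likelihood test of edgeR, fitted on all 24 libraries, and needed a p-value below 0.05 after Benjamini-Hochberg adjustment over all genes tested together with a log2 fold change beyond 1 in either direction. With 3 libraries in each line, an exact permutation test of a single gene cannot go below p = 0.1. The comparisons share lines: WT enters 7 of them, *Mbd3* KO enters 7 and MBD2a enters 5, so their results are not independent of each other.

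Several measurements bear on the labels and stand beside every result below. *Mbd3* had 149.0 to 156.9 CPM in WT and 34.2, 73.8 and 69.1 CPM in *Mbd3* KO, so reads on the targeted gene remained in the KO. It had 193, 168 and 198 CPM with MBD3a and 423, 496 and 426 CPM with MBD3ΔMBD, all above the WT range. The part of these levels in the results was not tested. *Mbd2* had 64.2 to 70.9 CPM in *Mbd3* KO and 253 to 700.2 CPM in the MBD2aΔGR, MBD2aR181C and MBD2t libraries, but 87.2, 86.3 and 67.0 CPM in the MBD2a libraries s13, s14 and s15. In s15 the level of the gene that the construct encodes thus lay inside the range of *Mbd3* KO without a construct, and the calls that rest on MBD2a are therefore also given without s15. Whether s15 still carried or expressed the construct, and whether it carries the right label, was not tested. For ESC lines, the study reports equal MBD2 protein with MBD2a and MBD2aΔGR by Western blot. That is another measure at another stage than these RNA levels of NPCs. The neural progenitor markers, of which 7 of 8 were in the table, summed to 1107 to 1276 CPM in WT, between 129 and 184 CPM in *Mbd3* KO and 227, 270.4 and 126 CPM in the 3 MBD2a libraries. The summed trophoblast markers went the other way, with 146 to 303 CPM in WT, between 1698 and 2271 CPM in *Mbd3* KO and 555, 519 and 2095 CPM in MBD2a. The pluripotency markers summed to 24.2 to 175 CPM in WT and 327 to 1022 CPM in *Mbd3* KO. Between these lines all 7 neural progenitor markers were called lower, all 8 pluripotency and all 8 trophoblast markers higher, 1 of 8 endoderm markers higher and 3 of 8 mesenchyme markers lower. The levels of these markers thus differed between lines that are all labelled as progenitors, and in bulk RNA fewer cells of a type and less RNA per cell cannot be told apart. Macrophage and microglia markers summed to 2.50 to 4.16 CPM in WT and 34.5 to 48.6 CPM in *Mbd3* KO, and most of the sum in *Mbd3* KO came from *Cd68* and *Csf1r*. Of the other 6 markers of this list, *Itgam* had 16, 58 and 61 reads in *Mbd3* KO and 4, 3 and 13 in WT, *Aif1* reached at most 15 reads in any library, and *Ptprc*, *Adgre1*, *C1qa* and *Cx3cr1* reached at most 3. The part of these differences in the results was not tested.

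Type I and type III interferons act through receptors and JAK kinases on a complex that contains STAT2 and IRF9 and binds the interferon-stimulated response element (ISRE), while genes that answer interferon gamma carry the gamma-activated site (GAS). The genes that follow encode proteins that bind or cut viral RNA, hold viruses at membranes, attach the ubiquitin-like protein ISG15 to other proteins, or attack parasite vacuoles as GTPases. Embryonic stem cells are known for a weak response to interferon that strengthens with differentiation.

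The promoters show which of the listed genes carry that element near their start. RefSeq windows on GRCm38.p6, from 250 bases before to 50 bases after each annotated start, were matched for 37 of the 48 genes, and the ISRE was searched as GAAANNGAAA on both strands. It occurred in 19 of the 37 (51.4%, Wilson 95% interval 35.9 to 66.6%) and in 3.99% of the 27025 genes with a window. The stricter form followed by C occurred in 12 (32.4%) against 0.944% of all genes, and the GAS, searched as TTCNNNGAA, in 12 (32.4%) against 9.55%. In *Bst2*, *Ifitm3* and *Shisa5* matches to the ISRE and the GAS shared bases. No window was matched for *Mx1*, *Mx2*, *Oas2*, *Usp18*, *Ifi27*, *Parp9*, *Parp10*, *Parp14*, *Rtp4*, *Iigp1* and *Zbp1*. The stretches below run 5′ to 3′ along the gene's strand, with every base of an ISRE match in capitals. The first 7 genes carried a match and were called higher in *Mbd3* KO, and *Stat2* and *Ifitm2* carried a match and were not called. Of the 19 genes with an ISRE match, 17 were called higher in *Mbd3* KO against WT. Of the 18 with a window and no match, 14 were. The median log2 fold changes were 3.19 and 2.58, so most genes without a match rose too.
*Isg15*, chr4:156200855-156200916, minus strand: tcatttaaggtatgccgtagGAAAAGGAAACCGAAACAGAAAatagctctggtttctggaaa
*Ifit1*, chr19:34640765-34640833, plus strand: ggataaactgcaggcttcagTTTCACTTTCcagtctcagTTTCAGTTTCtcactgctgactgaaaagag
*Ifit3*, chr19:34583353-34583436, plus strand: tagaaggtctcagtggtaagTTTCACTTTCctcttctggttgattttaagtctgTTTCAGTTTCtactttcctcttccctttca
*Rsad2*, chr12:26456543-26456592, minus strand: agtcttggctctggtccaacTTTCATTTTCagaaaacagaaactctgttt
*Oas1a*, chr5:120907526-120907565, minus strand: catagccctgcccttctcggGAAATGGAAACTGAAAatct
*Gbp2*, chr3:142620584-142620633, plus strand: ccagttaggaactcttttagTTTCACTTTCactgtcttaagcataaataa
*Irgm1*, chr11:48871421-48871470, minus strand: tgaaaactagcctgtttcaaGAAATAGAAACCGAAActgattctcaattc
*Stat2*, chr10:128270256-128270305, plus strand: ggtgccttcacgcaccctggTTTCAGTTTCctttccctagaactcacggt
*Ifitm2*, chr7:140955978-140956027, minus strand: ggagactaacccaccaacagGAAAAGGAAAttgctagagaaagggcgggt
The 3 matches of *Isg15* overlap and span positions -78 to -57 from the start. Those of *Oas1a* and *Irgm1* begin at -20 and -30, and that of *Stat2* begins at -222.

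The first comparison asked how the listed genes differed between *Mbd3* KO and WT NPCs. Of the 48 genes, 42 were called higher and none lower in *Mbd3* KO, where 33.8% of all genes tested were called in either direction and 19.6% were called higher. The median log2 fold change of the 48 was 3.15, against -0.03 over all genes tested, and in 46 the 3 *Mbd3* KO libraries lay above all 3 WT libraries, as they did for 31.1% of all genes. The 6 genes that were not called were *Ifit2*, *Ifitm2*, *Stat2*, *Samhd1*, *Adar* and *Ube2l6*.

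**Figure D1:**
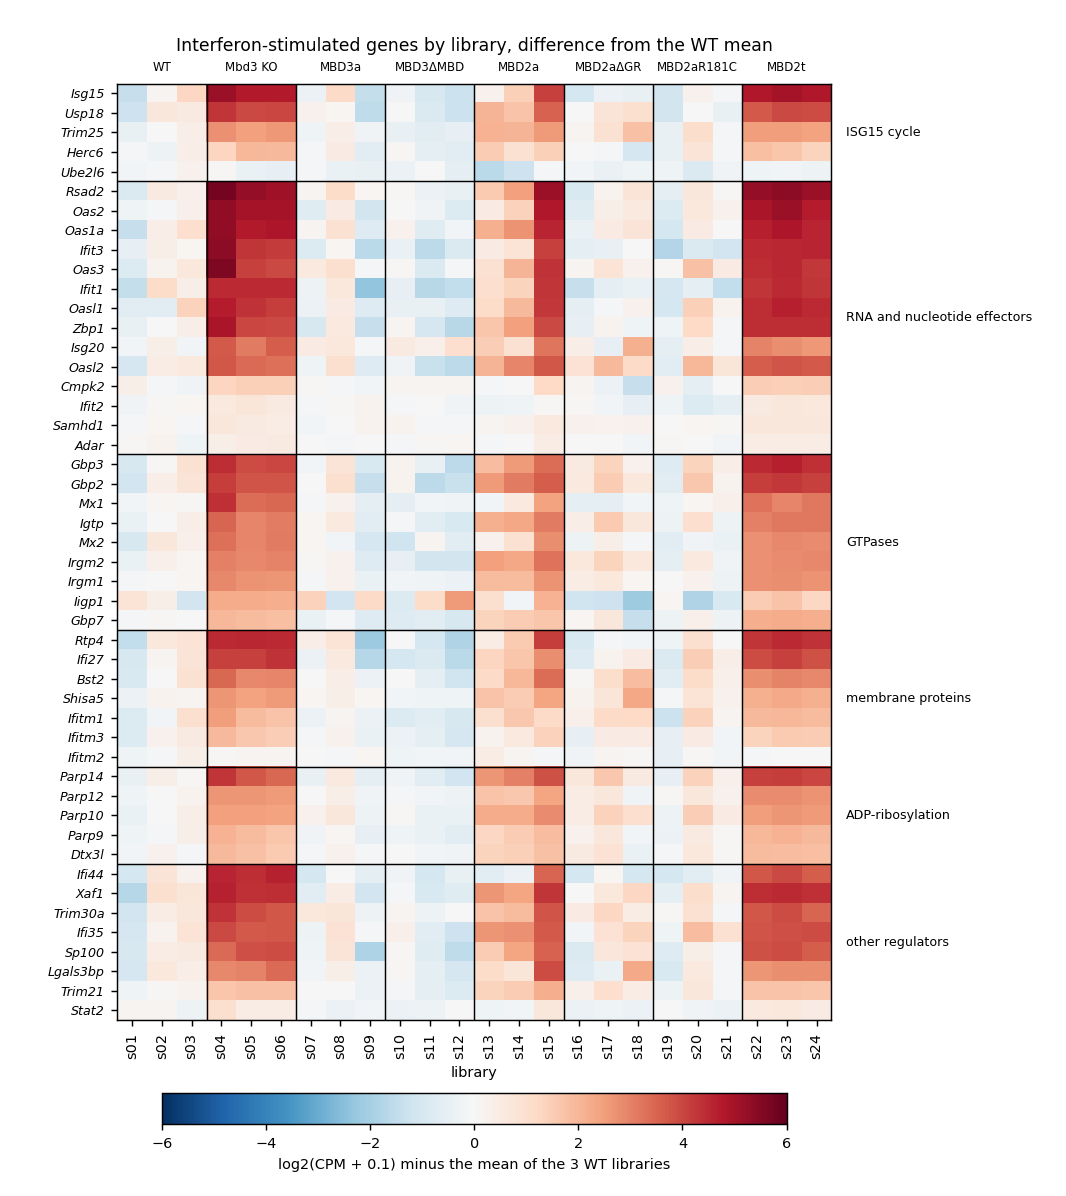
Each row is 1 of the 48 genes, grouped by role, and each column 1 of the 24 libraries, coloured by log2(CPM + 0.1) minus the mean of the 3 WT libraries. The *Mbd3* KO and MBD2t columns are red in most rows, the MBD2a library s15 resembles them more than s13 and s14 do, and the rows of *Ifitm2*, *Ube2l6*, *Adar*, *Samhd1* and *Stat2* stay pale.

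Among the 5 genes of the ISG15 cycle, 4 rose and 1 did not pass. *Isg15*, the ubiquitin-like protein itself, had 0.295, 1.05 and 2.34 CPM in WT and 36.9, 28.3 and 27.98 CPM in *Mbd3* KO. The groups did not overlap, and the difference was 4.63 on the log2 scale (SE 0.741, adjusted p = 3.48e-05, edgeR). *Usp18*, which removes ISG15 from its targets and restrains interferon signalling, rose from 0.537, 2.31 and 2.07 CPM to 29.4, 23.4 and 24.3 CPM. *Trim25*, a ligase that activates the RNA sensor RIG-I, went from 18.2, 25.3 and 32.9 CPM to 166, 135 and 151 CPM, and *Herc6*, the mouse ISG15 ligase, from 0.698, 0.605 and 1.05 CPM to 2.03, 3.34 and 3.28 CPM. Both were called, with log2 fold changes of 2.56 and 1.87. *Ube2l6*, the enzyme that conjugates ISG15, had 10.2, 10.2 and 13.7 CPM in WT and 12.01, 8.52 and 7.88 CPM in *Mbd3* KO. These ranges overlapped and the log2 fold change was -0.27 (adjusted p = 0.437, edgeR). *Uba7*, the activating enzyme of the same cycle and no member of the list, was called higher with a log2 fold change of 3.59, so the genes of the cycle did not move as a block.

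The genes that bind RNA or nucleotides held the largest changes, with 11 of 14 called higher and a median log2 fold change of 4.33. *Oas2*, which makes the 2′-5′ oligoadenylates that activate RNase L, had 0.0805, 0.110 and 0.170 CPM in WT, whereas *Mbd3* KO had 8.46, 6.82 and 6.72 CPM. This was the largest log2 fold change of the list, 5.87 (SE 0.818, adjusted p = 3.05e-06, edgeR). The WT values of *Oas2* rested on 3, 4 and 7 reads. *Rsad2*, which encodes viperin, rose from 0.322, 0.990 and 0.852 CPM to 40.9, 28.9 and 25.4 CPM, a log2 fold change of 5.45. *Ifit1*, which binds viral RNA lacking the host cap methylation, rose from 0.349, 2.53 and 1.44 CPM to 27.1, 26.9 and 27.3 CPM. *Ifit3*, its partner, rose from 0.349, 0.715 and 0.584 CPM to 25.7, 12.2 and 11.5 CPM, and in both the groups were far apart. *Oas1a* (log2 fold change 4.81), the nucleic acid sensor *Zbp1* (4.50), the oligoadenylate synthetase-like *Oasl2* (3.33) and the exonuclease *Isg20* (3.66) were called as well. *Samhd1*, a dNTP hydrolase, had 40.9, 46.8 and 41.0 CPM in WT and 68.6, 62.4 and 57.5 CPM in *Mbd3* KO. The groups did not overlap, and its log2 fold change of 0.55 passed the adjusted p-value (0.000566, edgeR) but not the fold threshold. That was also so for the RNA editing enzyme *Adar* (0.46, adjusted p = 0.00379) and for *Ifit2* (0.63, adjusted p = 0.00263).

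All 9 GTPases were called higher. *Mx1*, an antiviral dynamin-like GTPase, had the largest fitted rise among the GTPases (log2 fold change 5.33), a size that depends on the prior count because WT was near 0, with 0.0268, 0.0550 and 0.0487 CPM in WT (1, 2 and 2 reads) and 2.89, 1.37 and 1.48 CPM in *Mbd3* KO. *Mx2* rose from 0.295, 1.10 and 0.828 CPM to 7.32, 5.64 and 6.48 CPM. *Gbp2*, a guanylate-binding protein that coats pathogen vacuoles, rose from 1.58, 4.81 and 6.21 CPM to 65.3, 50.7 and 50.9 CPM, and *Gbp3* from 0.456, 1.05 and 1.95 CPM to 23.6, 16.5 and 17.2 CPM. The immunity-related GTPases moved over a narrower range. *Irgm1*, a regulator of this family, went from 4.00, 4.21 and 4.60 CPM to 31.6, 27.7 and 27.2 CPM, with a log2 fold change of 2.75 (SE 0.219, adjusted p = 2.93e-08, edgeR). *Irgm2* and *Igtp* had log2 fold changes of 2.97 and 3.19. *Iigp1* was low in WT (0.671, 0.468 and 0.0974 CPM) and had 2.00, 1.97 and 1.88 CPM in *Mbd3* KO.

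Of the 7 membrane proteins, 6 rose. *Bst2*, which encodes tetherin and holds budding virus at the cell surface, went from 9.58, 18.5 and 34.1 CPM to 198, 135 and 138 CPM, a log2 fold change of 2.92 (SE 0.571, adjusted p = 0.000243, edgeR). *Shisa5* (2.53) and *Ifi27* (4.10) were also called. The *Ifitm* genes, whose proteins block viral entry, differed among themselves. *Ifitm1* had 4.97, 7.95 and 17.4 CPM in WT and 50.2, 32.8 and 29.5 CPM in *Mbd3* KO (log2 fold change 1.88), and *Ifitm3* rose by a log2 fold change of 1.58. *Ifitm2* had 59.9, 68.9 and 90.6 CPM in WT and 76.5, 80.7 and 81.2 CPM in *Mbd3* KO, ranges that overlapped, with a log2 fold change of 0.12 (adjusted p = 0.529, edgeR). Per kilobase of exon, *Ifitm2* was the most abundant of the 48 genes in WT, at 112 CPM per kb, and *Bst2* was next at 27.1 CPM per kb. In *Mbd3* KO the order of these 2 was reversed, at 122 ± 3.96 for *Ifitm2* and 206 ± 46.4 CPM per kb for *Bst2* (SD, n = 3). The *Ifitm* genes share sequence, as the *Oas*, *Gbp* and *Mx* genes do, so reads that fit more than 1 copy make the split between relatives uncertain.

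**Figure D2:**
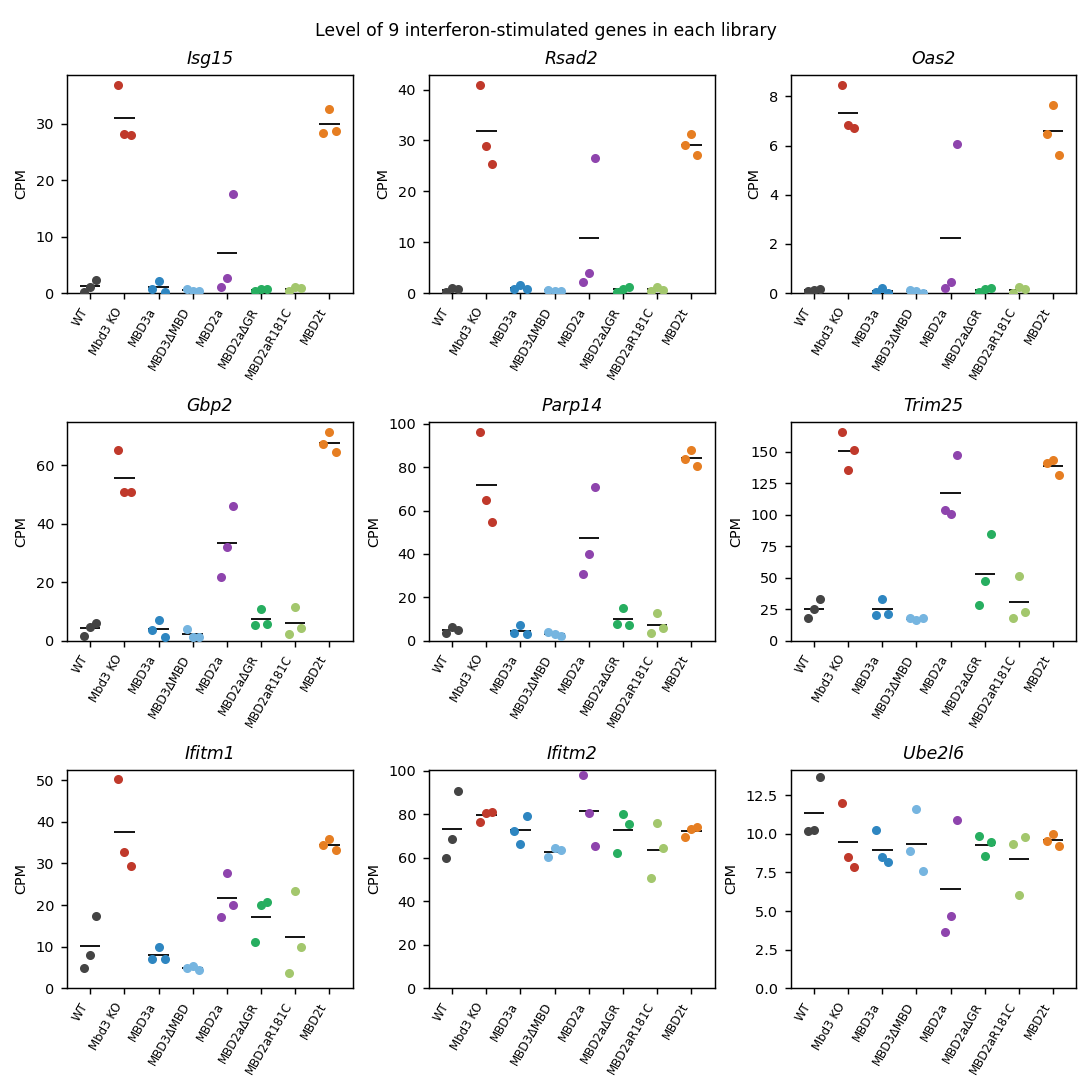
The level in CPM of 9 genes in each of the 24 libraries, with a line at the mean of the 3 libraries of each line and a linear axis from 0. *Isg15*, *Rsad2* and *Oas2* are near 0 outside *Mbd3* KO, MBD2t and the MBD2a library s15, *Gbp2*, *Parp14* and *Trim25* are raised in all 3 MBD2a libraries, and *Ifitm2* and *Ube2l6* overlap between WT and *Mbd3* KO.

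All 5 genes of ADP-ribosylation, a modification of proteins by poly- or mono-ADP-ribose, were called higher. *Parp14* went from 3.60, 6.22 and 5.11 CPM to 96.1, 64.9 and 54.5 CPM, a log2 fold change of 3.85 (SE 0.457, adjusted p = 1.69e-06, edgeR). *Parp9* and *Dtx3l*, whose proteins act as a complex, rose by log2 fold changes of 1.87 and 1.77. They overlap on opposite strands of chromosome 16 (*Parp9* at 35938556 to 35972691, *Dtx3l* at 35926597 to 35939237, mm9), and the strand setting of the counting is not given in the sources used here, so part of their reads may be shared. Of the 8 other regulators, 7 rose. *Trim30a*, a mouse TRIM protein, went from 0.188, 0.770 and 0.901 CPM to 12.6, 9.43 and 8.23 CPM, *Sp100*, a nuclear body protein, from 0.0805, 0.385 and 0.414 CPM to 3.66, 5.16 and 5.21 CPM, and *Lgals3bp*, a secreted galectin-binding glycoprotein, from 1.26, 4.24 and 3.51 CPM to 20.4, 22.1 and 29.6 CPM. *Stat2*, the transcription factor of the type I pathway, had 48.7, 48.4 and 35.7 CPM in WT and 85.4, 58.8 and 59.9 CPM in *Mbd3* KO, and its log2 fold change of 0.62 (adjusted p = 0.012, edgeR) did not reach the fold threshold.

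The next comparisons asked whether a construct brought the listed genes back. With MBD3a, none of the 48 was called against WT by edgeR's quasi-likelihood test or by DESeq2. Of all genes, 0% were called in either direction. None of the 48 had an unadjusted p-value under 0.05 from edgeR, against 293 of the 16582 genes tested. With MBD3ΔMBD, none was called by either tool (0.0181% of all genes were called). An unadjusted p-value under 0.05 from edgeR was found for 3 of the 48, against 1187 of the 16582 genes tested. However, 43 of the 48 had a lower value than in WT, with a median log2 fold change of -0.66 against 0.000175 over all genes. In 4 of them (*Trim25*, *Gbp7*, *Irgm1* and *Irgm2*) the 3 MBD3ΔMBD libraries lay below all 3 WT libraries, as they did for 6.16% of all genes. This count is near the share over all genes and is not read as a result about the listed genes. With MBD2aR181C, none was called by either tool (0.0181% of all genes were called). Of the 48, 1, *Ifit2*, had an unadjusted p-value under 0.05 from edgeR, against 655 of the 16582 genes tested. With MBD2aΔGR, 1 gene was called higher, *Shisa5*, as were 2.69% of all genes. Of the 48, 8 had an unadjusted p-value under 0.05 from edgeR, against 4409 of the 16582 genes tested. *Shisa5* had 17.5, 24.6 and 75.3 CPM in these libraries, against 11.6, 17.2 and 16.8 CPM in WT, a log2 fold change of 1.36 (SE 0.371, adjusted p = 0.032, edgeR). The highest value was that of s18, and without s18, s01 or s02 no gene was called.

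Against *Mbd3* KO, 42 of the 48 genes were called lower with MBD3a (18.9% of all genes called lower), 41 with MBD3ΔMBD (20.9%), 41 with MBD2aΔGR (15.3%) and 43 with MBD2aR181C (18.1%). None was called higher in these 4 comparisons. Of the 42 genes that had risen in *Mbd3* KO, 40 were called lower in all 4, *Ifit2* was called lower besides in MBD2aR181C (-1.18), and the exceptions were *Iigp1* in MBD3ΔMBD and *Ifitm1* in MBD2aΔGR. In 45 of the 48 genes all 12 libraries of these lines lay below all 3 *Mbd3* KO libraries, as they did for 17.4% of all genes tested. *Isg15* had 0.717, 2.22 and 0.278 CPM with MBD3a, 0.803, 0.431 and 0.316 CPM with MBD3ΔMBD, 0.399, 0.715 and 0.665 CPM with MBD2aΔGR and 0.382, 1.15 and 0.900 CPM with MBD2aR181C. All of these lay within or below the WT range. The largest fitted fall was of *Ifi44* with MBD3a (log2 fold change -6.58), MBD3ΔMBD (-6.77) and MBD2aR181C (-7.00), and of *Mx1* with MBD2aΔGR (-7.17). In *Ifi44*, *Mx1* and *Oas2* all 12 libraries of these lines held fewer than 10 reads, so the sizes depend on the prior count. The smallest called falls with MBD3a were *Cmpk2* (-1.44) and *Iigp1* (-1.53).

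MBD2a stood between the others. Against WT, 38 of the 48 genes were called higher and none lower (16.9% of all genes called higher), with a median log2 fold change of 2.48. All 38 were among the 42 that rose in *Mbd3* KO. The 4 that rose in *Mbd3* KO and were not called in MBD2a were *Ifitm1*, *Ifitm3*, *Cmpk2* and *Iigp1*. The largest rises were of *Oas2* (4.21), *Rsad2* (3.92) and *Oas1a* (3.35), and without s15 these were 1.44 (not called, adjusted p = 0.11, edgeR), 2.10 and 2.26, while *Parp14* had the largest (2.84). Against *Mbd3* KO, 9 genes were called lower and none higher (4.4% of all genes called lower). They were *Mx1* (log2 fold change -2.71), *Ifi44* (-2.51), *Ifi27* (-2.14), *Isg15* (-2.10), *Ifit3* (-1.95), *Oas2* (-1.65), *Usp18* (-1.43), *Gbp3* (-1.43) and *Mx2* (-1.39), with adjusted p-values from edgeR between 4.08e-05 and 0.0459. These calls depend on the fit: none was made in a fit of only these 2 lines, 3 were made without MBD2t and 3 with DESeq2. With DESeq2 *Mx2*, *Oas2*, *Usp18*, *Ifi44* and *Gbp3* were not called, and *Ifit3* had no adjusted p-value.

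**Figure D3:**
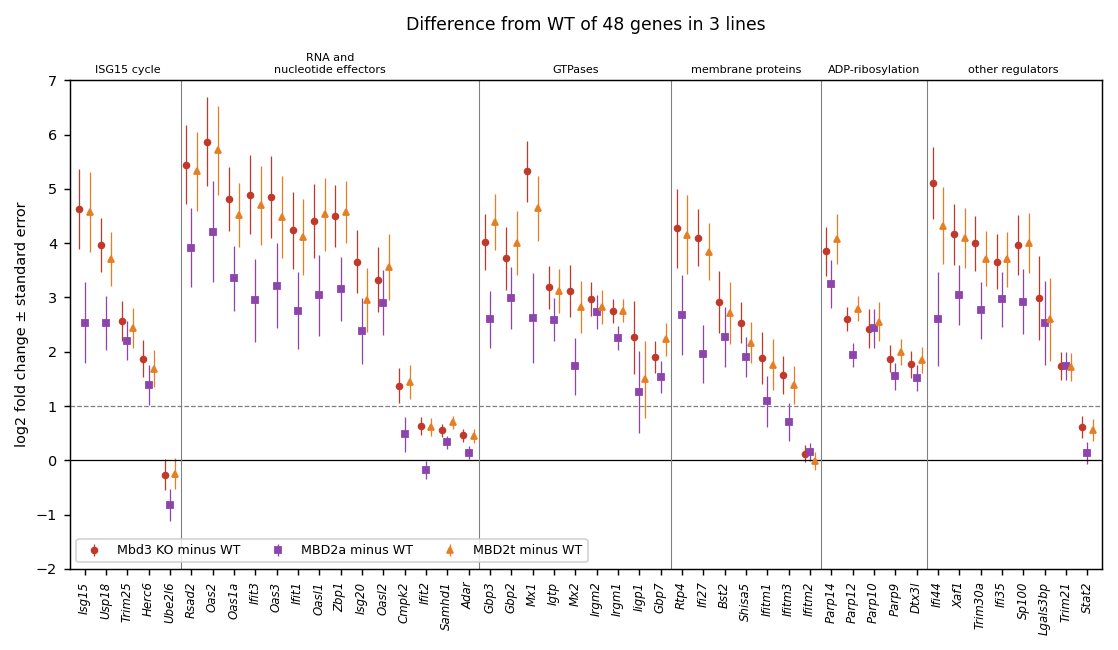
The log2 fold change against WT of each of the 48 genes, with its standard error, in *Mbd3* KO (circles), MBD2a (squares) and MBD2t (triangles), grouped by role, with a dashed line at the threshold of 1. The same 3 WT libraries enter all 3 values. The MBD2a squares lie below the *Mbd3* KO circles by the largest distances for *Mx1*, *Ifi44*, *Ifi27* and *Isg15* and lie close to them for *Trim21*, *Parp10* and *Irgm2*.

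The 3 MBD2a libraries differed from each other in these genes. Each library was placed on the log2 CPM scale between the WT mean (0%) and the *Mbd3* KO mean (100%) for each of the 42 genes called between them. The median position of the 42 genes was 45.5% in s13, 54.5% in s14 and 94.6% in s15. The other 3206 genes called higher in *Mbd3* KO had median positions of 67.9%, 70.5% and 94.4% in the same libraries. In s13 and s14 the listed genes thus stood lower on this scale than the rest of the genes that rose in *Mbd3* KO, and in s15 they stood at the same place. The position is a description, since the genes were chosen by the same contrast that sets its scale.

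In 24 of the 48 genes s15 was more than 2-fold above both s13 and s14, as it was for 6.01% of all genes tested. *Ifi44* had 0.0288, 0.0589 and 2.22 CPM in s13, s14 and s15, *Oas2* had 0.201, 0.471 and 6.07 CPM, *Ifit3* had 0.777, 1.03 and 10.7 CPM, and *Isg15* had 1.15, 2.68 and 17.6 CPM. The first of these values of *Isg15* lay inside the WT range and the second just above it. *Mx1* (0.0288, 0.118 and 0.663 CPM), *Ifit1* (2.33, 2.95 and 23.6 CPM) and *Rsad2* (2.13, 4.04 and 26.5 CPM) followed the same order. *Lgals3bp* (5.81, 4.51 and 41.5 CPM) was also highest in s15, where it exceeded every *Mbd3* KO library.

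The difference was uneven across the roles. Of the 14 genes that bind RNA or nucleotides, 10 were more than 2-fold above both in s15, and of the 5 genes of ADP-ribosylation none was. The ADP-ribosylation genes were raised in all 3 libraries, with *Parp9* at 41.1, 50.1 and 63.9 CPM, *Parp14* at 30.7, 39.9 and 71.0 CPM and *Dtx3l* at 35.4, 37.2 and 47.2 CPM. Every one of these values lay above all WT libraries. *Trim25* had 104, 101 and 147 CPM, and *Irgm1* and *Irgm2* had 16.4, 16.1 and 28.5 CPM and 19.9, 18.1 and 34.4 CPM. *Gbp2* had 21.9, 32.2 and 46.0 CPM and *Gbp3* had 3.89, 6.30 and 10.9 CPM. By role, the median position in s13 and s14 was 69.2% and 80.6% for the ADP-ribosylation genes, 66.0% and 69.4% for the GTPases and 29.3% and 46.1% for the genes that bind RNA or nucleotides. In 32 of the 48 genes both s13 and s14 lay above every WT library (31.2% of all genes tested), and in 46 both lay below every *Mbd3* KO library (23.5%). *Ifitm2* went against the rest, with 98.2, 80.6 and 65.3 CPM, the only gene of the 48 in which s15 was below both. *Ube2l6* had 3.66, 4.65 and 10.9 CPM, so that s13 and s14 lay below all 3 WT libraries. Genes with an ISRE match and genes without one did not stand far apart here, with median log2 differences between s15 and the mean of s13 and s14 of 0.99 and 1.13.

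**Figure D4:**
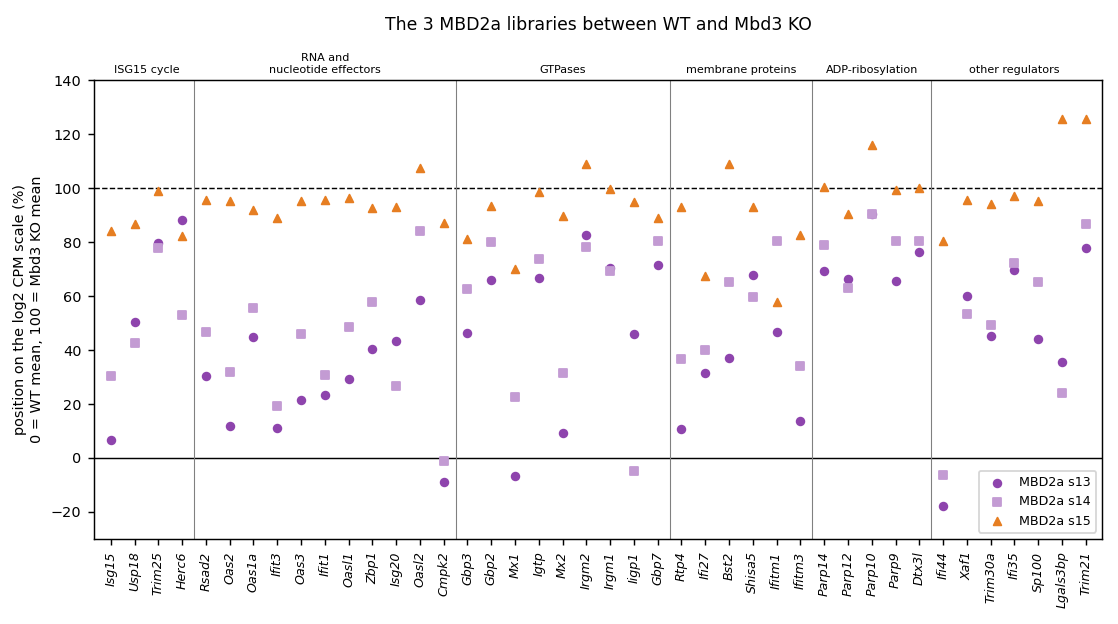
The position of the MBD2a libraries s13 (dark circles), s14 (light squares) and s15 (triangles) between the WT mean (0%) and the *Mbd3* KO mean (100%) on the log2 CPM scale, for the 42 genes called between these lines, grouped by role. Most triangles lie near 100%, while circles and squares are low for *Ifi44*, *Cmpk2*, *Mx1*, *Isg15* and *Ifit3*, the square also for *Iigp1*, and highest for *Parp10*.

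Without s15, 26 of the 48 genes were called higher and 1 lower in MBD2a against WT (26% of all genes called in either direction). All 5 ADP-ribosylation genes were among the 26, with 6 of the 9 GTPases and 4 of the 14 genes that bind RNA or nucleotides (*Oas1a*, *Oasl2*, *Rsad2* and *Zbp1*). *Isg15* had a log2 fold change of 0.63 (adjusted p = 0.416, edgeR) and *Ifit1* one of 0.89 (adjusted p = 0.172). The gene called lower was *Ube2l6*, at -1.44 (adjusted p = 0.000199). Against *Mbd3* KO, 24 genes were called lower without s15 in place of 9 (7.69% of all genes called in either direction), 10 of them genes that bind RNA or nucleotides and none of them ADP-ribosylation genes. With s15 as the only MBD2a library the spread within the line cannot be estimated, so no count of calls is given for it. Beside these differences, s15 also had the lower *Mbd2* level, the higher trophoblast sum and the lower neural sum given above, and a pluripotency sum of 705 CPM against 351 and 554 CPM in s13 and s14. The endoderm markers summed to 3074, 609 and 3579 CPM and the macrophage and microglia markers to 12.1, 13.2 and 22.6 CPM in s13, s14 and s15. Each library was also set against the mean of the other libraries of its line, less the median over all chromosomes. Genes of chromosome 1 then lay at a median log2 difference of -0.35 in s15 and of -0.39 in the *Mbd3* KO library s04. These were also the libraries with the lowest *Mbd3*, at 36.4 and 34.2 CPM. Of the listed genes only *Sp100* lies on chromosome 1. The part of any of these in the difference between the MBD2a libraries was not tested.

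The next comparison set the MBD2a variants against MBD2a. Against MBD2a, 35 of the 48 genes were called lower in MBD2aΔGR (10.6% of all genes called lower) and 39 in MBD2aR181C (15.1%), and none was called higher. All 35 were among the 39, and the 4 others were *Isg20*, *Bst2*, *Lgals3bp* and *Shisa5*. The largest falls were of *Mx1* (-4.45), *Ifi44* (-4.27) and *Iigp1* (-3.97) in MBD2aΔGR and of *Ifit3* (-4.67), *Ifi44* (-4.50) and *Ifit1* (-4.20) in MBD2aR181C. Without s15 none of the first 3 was called (*Mx1* -2.54, *Ifi44* -0.15 and *Iigp1* -3.09, adjusted p = 0.167, 0.954 and 0.1, edgeR), nor was *Ifi44* in MBD2aR181C (-0.38, adjusted p = 0.861), while *Ifit3* (-2.44) and *Ifit1* (-2.33) were. *Mx1* and *Ifi44* rested on 0 to 4 reads in the libraries of both variants. The 9 GTPases and the 5 ADP-ribosylation genes were called lower in both, and without s15 there were 6 GTPases and 4 ADP-ribosylation genes in MBD2aΔGR and 7 and 5 in MBD2aR181C. *Parp14* had 7.74, 15.0 and 7.15 CPM in MBD2aΔGR and 3.44, 12.9 and 6.06 CPM in MBD2aR181C, and *Gbp2* had 5.50, 10.7 and 5.68 CPM and 2.34, 11.5 and 4.29 CPM. All of these lay below every MBD2a library. Without s15, 20 genes were called lower and 1 higher in MBD2aΔGR (13.6% of all genes called in either direction) and 27 lower and 1 higher in MBD2aR181C (22%). The gene called higher was *Ube2l6* in both.

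The MBD2aΔGR library s18 was more than 2-fold above s16 and s17 in 4 of the 48 genes (7.97% of all genes tested). This count is close to the share over all genes, so it is not particular to the listed genes. The 4 were *Isg20*, *Lgals3bp*, *Shisa5* and *Mx1*, the last of these with at most 1 read in any of the 3 libraries. *Isg20* had 0.952, 0.477 and 3.43 CPM and *Lgals3bp* had 1.51, 2.00 and 13.5 CPM in s16, s17 and s18. *Trim25* had 27.98, 47.4 and 84.5 CPM and *Bst2* had 19.1, 37.7 and 66.6 CPM, so both were less than 2-fold above s17 in s18. In 13 genes s18 was below both others (42.7% of all genes). In s16, s17 and s18 the endoderm markers summed to 1264, 981 and 16970 CPM, the neural progenitor markers to 1249, 984 and 643 CPM, the pluripotency markers to 60.8, 174 and 376 CPM, the trophoblast markers to 157, 169.8 and 761 CPM and the macrophage and microglia markers to 3.72, 5.57 and 22.3 CPM. The part of these differences in the values of s18 was not tested.

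MBD2t stayed with *Mbd3* KO. Against WT, 41 of the 48 genes were called higher (18.2% of all genes called higher), all but *Iigp1* of the 42 that rose in *Mbd3* KO. The largest rises were of *Oas2* (5.71), *Rsad2* (5.33) and *Ifit3* (4.70). Against *Mbd3* KO none was called by edgeR's quasi-likelihood test or by DESeq2 (0.0241% of all genes were called), and the median log2 fold change was -0.09. Of the 48, 1 had an unadjusted p-value under 0.05 from edgeR, against 571 of the 16582 genes tested. *Isg15* had 28.4, 32.7 and 28.8 CPM with MBD2t. In 16 genes all 3 MBD2t libraries lay within the range of the *Mbd3* KO libraries. In 4 genes all 3 lay above every *Mbd3* KO library, and in 11 they lay below. The matching shares of all genes tested are not given here, so these counts have no background beside them and are a description only. Against MBD2a, *Mx1* (2.03), *Ifi27* (1.88), *Gbp3* (1.80) and *Ifi44* (1.71) were called higher (3.14% of all genes called higher), and without s15 there were 23 (6.04% of all genes called in either direction). Because the MBD2t libraries are repeats of 1 clone, clone-to-clone differences are not part of their spread.

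The genes upstream of the list were counted from a fixed set of 41 genes of the interferon pathway, of which 30 were tested. In *Mbd3* KO against WT, 16 of the 30 were called higher and 1 lower, where 19.6% of all genes were called higher. None of the ligands passed the filter on low counts. The 11 interferon genes of the table had between 0 and 4 reads in all in each library, with 0, 3 and 4 reads in *Mbd3* KO and 0 in each WT library, and *Ifnb1* had 1 read over all 24 libraries. These reads are too few to compare the lines. The receptor chains of type I interferon were not called, with *Ifnar1* at 92.3, 86.4 and 67.8 CPM in WT and 75.6, 89.1 and 90.4 CPM in *Mbd3* KO and *Ifnar2* at 12.5, 14.1 and 12.1 CPM and 18.4, 16.997 and 20.4 CPM. *Ifnlr1* (log2 fold change 1.49) and *Il10rb* (2.40), the chains of the type III receptor, were called higher.

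Among the transcription factors, *Irf9* was higher by 1.57 on the log2 scale in *Mbd3* KO (adjusted p = 9.38e-08, edgeR). *Irf7*, the factor that amplifies type I interferon expression, had 0.107, 0.385 and 0.584 CPM in WT and 17.4, 13.9 and 13.2 CPM in *Mbd3* KO, higher by 5.33 on the log2 scale (adjusted p = 3.36e-06, edgeR). *Irf1*, which binds the same element, had 7.14, 13.4 and 27.3 CPM and 102, 83.8 and 75.1 CPM (log2 fold change 2.44). *Irf2*, a related repressor, was the gene called lower (-1.22). These factors did not follow the same course in the MBD2a libraries s13, s14 and s15. *Irf1* was at 85.1, 96.7 and 104 CPM, within or just above the range of *Mbd3* KO. *Irf7* was at 0.432, 1.27 and 8.79 CPM, close to WT in s13 and s14 and nearer to *Mbd3* KO in s15. *Irf9* was at 28.6, 28.8 and 40.4 CPM. Against *Mbd3* KO, *Irf7* (-2.05), *Tlr3* (-1.27) and *Sting1* (-1.11) were the pathway genes called lower in MBD2a, and without s15 their log2 fold changes were -4.14, -1.99 and -1.61. The cytosolic sensors *Ifih1* (2.85) and *Ddx58* (2.51), the adaptor *Sting1* (3.16) and the RNA-activated kinase *Eif2ak2* (1.84) were called higher in *Mbd3* KO against WT.

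**Figure D5:**
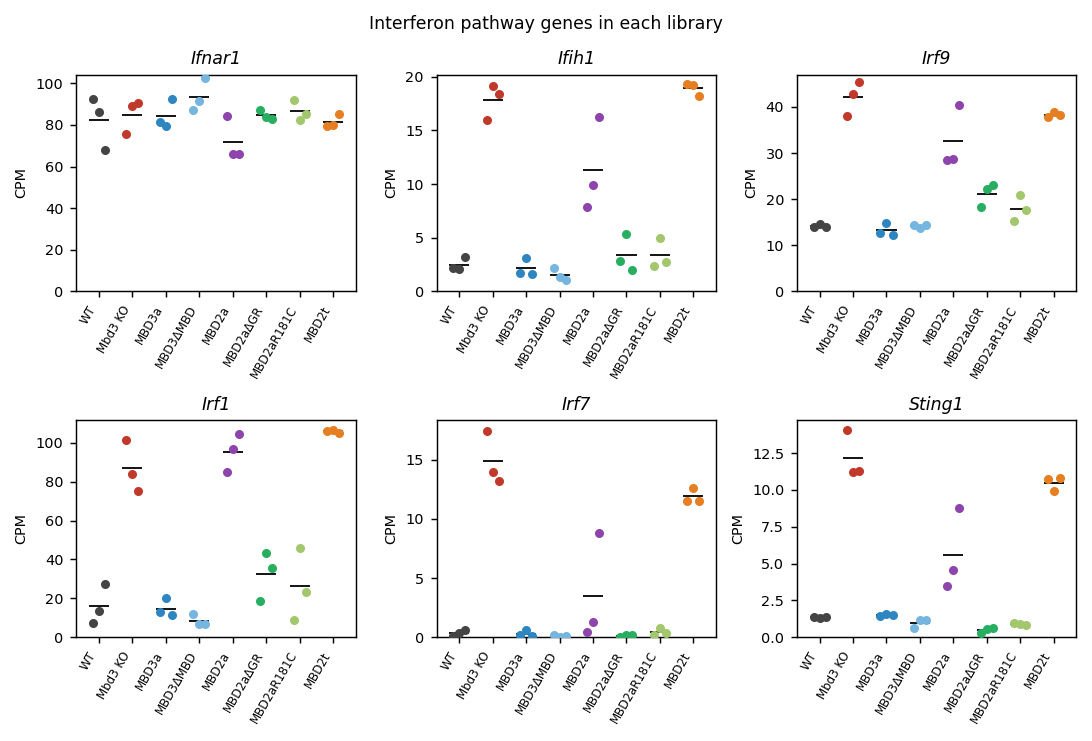
The level in CPM of 6 genes of the interferon pathway in each of the 24 libraries, with a line at the mean of each line and a linear axis from 0. *Ifnar1* overlaps across the lines, *Irf1* is near its *Mbd3* KO level in all 3 MBD2a libraries, and *Irf7* is nearer to its own *Mbd3* KO level in s15 than in the other MBD2a libraries.

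In most lines, libraries of the same line varied more in these genes than over all genes tested. The median standard deviation of log2 CPM within a line, over the 48 genes, was 0.48 in WT, 0.61 in MBD3a, 0.44 in MBD3ΔMBD, 0.77 in MBD2a, 0.57 in MBD2aΔGR and 0.68 in MBD2aR181C. Over all genes tested it was 0.29, 0.18, 0.19, 0.22, 0.31 and 0.25. In *Mbd3* KO (0.20 against 0.18) and in MBD2t (0.08 against 0.07) the values were closer together. The genes were not matched for level. The median log2 CPM of the 48 genes was 0.526, 1.80 and 1.87 in WT and 4.88, 4.67 and 4.70 in *Mbd3* KO. The part of low counts in the spread was not tested. In most lines 1 library was the highest in most of the 48 genes. It was s04 in *Mbd3* KO (34 genes, against 43% of all genes tested), s08 in MBD3a (38, 34%), s10 in MBD3ΔMBD (35, 35.4%), s15 in MBD2a (45, 36.8%), s20 in MBD2aR181C (40, 37.6%) and s23 in MBD2t (37, 30.3%). In WT the highest was s03 in 28 genes (44.7%) and s02 in 17 (25%), and s01 was the lowest in 42 (33.4%). In MBD2aΔGR s17 was the highest in 24 (22.7%) and s18 in 18 (41.6%). *Oasl2*, for example, had 3.81, 10.4 and 11.6 CPM in WT, 6.39, 15.0 and 4.51 CPM in MBD3a and 4.88, 31.4 and 12.7 CPM in MBD2aR181C. In 6 of the 8 lines the library with the highest median level of the 48 genes was also the library with the highest summed pluripotency markers, which was 175 CPM in WT s03, 134 CPM in MBD3a s08 and 323 CPM in MBD2aR181C s20. The same count was 5 for the macrophage and microglia markers, 4 each for the trophoblast, endoderm and pathway genes, 1 for the neural progenitor and 0 for the mesenchyme markers. The part of this in the spread was not tested.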

How the data were processed

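Gene expression was measured by poly(A) RNA-seq in 24 libraries, 3 for each of 8 lines, assigned from the labels and the group names of the columns, which carry a library number and no replicate number. The authors trimmed reads with Trim Galore, aligned them with STAR to mm9 and counted reads per gene with QuasR, and the deposited values are these whole-number counts, not normalized. The ChIP-seq samples were not analysed here. From the counts, filterByExpr, TMM scaling and the quasi-likelihood test of edgeR 4.0.16 (R 4.3.3) were run on all libraries with the line as the only factor. Log2 CPM used a prior count of 1. Standard errors (SE) were obtained from each fold change and its F statistic. The test was also run on simulated counts, drawn with the spread fitted to these data and without genes of low WT level. Every pair of libraries of a line differed by more than sampling noise (chi-square per gene 3.42 to 303). Coordinates of genes are from the annotation on mm9, promoter windows from RefSeq. Genes named follow a rule by role and by the largest changes among called genes in each comparison. The *Mx1*, *Isg20* and *Lgals3bp* values of s18 and other single libraries were chosen after they were seen. The listed genes, pathway genes and markers were chosen with earlier results of these data known. Alternatives were other scalings, filters, thresholds, fits, DESeq2 1.42.0 and leaving out each library. A pathway gene is not reported here.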

Additional observations from a re-analysis of the deposited data

How the results depend on the processing

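Of the 16 comparisons, 12 kept a count of called genes within 1.5 times under every alternative tried. The 4 others involve MBD2a or MBD2aΔGR. For MBD2a against *Mbd3* KO, 9 genes were called, against 0 in a fit of only the 2 lines, 3 without MBD2t, 5 with no filter on low counts, 2 with glmTreat, 2 with the legacy test (added after the data had been seen), 3 with DESeq2, and 3 to 24 with each library left out (3 or 4 without s04, s05, s06, s13 or s14, 24 without s15). For MBD2aΔGR against MBD2a, 35 were called, against 15 in the 2-line fit, 18 with glmTreat and 21 to 38 with each library left out. For MBD2t against MBD2a, 4 were called, against 2 in the 2-line fit, 0 with glmTreat, 0 with the legacy test, 2 with DESeq2 and 1 to 23 with each library left out. For MBD2aΔGR against WT, 1 was called, against 0 in the 2-line fit, 0 without MBD2t, 0 with glmTreat, 2 with DESeq2 and 0 to 3 with each library left out. Apart from s15, the cause was not tested.

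Among 37 named genes, *Ifitm2* changed sign, with -0.00828 to 0.302 in *Mbd3* KO against WT and -0.136 to 0.159 in MBD2a against *Mbd3* KO as single libraries were left out (below 0 without s01 and without s13). In MBD2a against *Mbd3* KO, 33 of 331 values fell short of the thresholds that the main value passed and 10 passed them where it did not, while in *Mbd3* KO against WT none of 331 did either. DESeq2 gave no adjusted p-value for *Ifit1* and *Ifit3* in *Mbd3* KO against WT. In MBD2a against *Mbd3* KO it gave none for *Ifit3*, among the genes that edgeR called there. Library size alone as scaling moved the median log2 fold change of all genes by up to -0.178 (MBD3ΔMBD against *Mbd3* KO, from 0.03 to -0.15). The share of promoters with a match was 51.4% for the ISRE, 32.4% for the ISRE followed by C and 32.4% for the GAS. No paired analysis was possible because the columns carry no replicate number. At 3 reads, 0.0607 to 0.115 CPM, differences in *Mx1*, *Ifi44*, *Oas2* and the interferon genes were limited by depth in the lines where they were low.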
